A study of Arabidopsis thaliana with 8 samples.

Results

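The comparison set the 4 hag1 libraries against the 4 Col libraries of an Arabidopsis thaliana shoot regeneration series, with each stage as a pair, and asked which transcripts differed between the genotypes in the same direction at every stage. All 8 of the 8 libraries in the series were used. Col is the wild type, Columbia-0, and hag1 is a mutant of HAG1 whose allele the labels do not name. Each genotype gave 1 library of roots, 1 of root explants after 4 days on callus-inducing medium (CIM), 1 after those 4 days and a further 2 days on shoot-inducing medium (SIM), and 1 after the 4 days on CIM and 2 weeks on SIM. No other treatment or transgene is named for either genotype, and the number of plants behind a library is not given.

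HAG1, also called GCN5, is a histone acetyltransferase of the GNAT family. It works in SAGA-type coactivator complexes, in which the adaptor ADA2B holds the enzyme, and acetylates histone H3 near the starts of transcribed genes, a modification associated with active transcription. Other plant acetyltransferases belong to the MYST, CBP and TAFII250 families, and deacetylases remove the mark. In root explants CIM, rich in auxin, starts callus growth along a root development programme, and SIM, rich in cytokinin, then starts shoots.

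The 4 Col libraries held 28977889 unique reads together and the 4 hag1 libraries 28671755, the deepest single library had 1.08 times the reads of the shallowest, and between 21336 and 22313 loci had at least 1 read. Values of a gene are given below in the order root, CIM, 2 days on SIM and 2 weeks on SIM. HAG1 (AT3G54610, chromosome 3, 20213560 to 20217653, forward strand, TAIR10) had 171, 204, 340 and 156 reads in the Col libraries and 21, 8, 16 and 13 in the hag1 libraries. Every hag1 library lay below every Col library. Reads covered between 86.6 and 91.8% of the HAG1 transcript model in Col and between 15.6 and 32.3% in hag1. HAG1 fell by 3.82 on the log2 scale over the stages (SE 0.29, edgeR quasi-likelihood test, adjusted p = 0.0239). The labelled tissue was checked with endodermis markers, whose summed level was 1046 counts per 1e+06 reads (CPM) in Col roots and 20.3 to 204 CPM in the Col explants, and 439 against 14.4 to 48.3 CPM in hag1.

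Transcripts that were nearly silent in Col and present in hag1 made up the largest changes, while most transcripts that fell were well expressed in Col. Of 18710 genes tested, 45 rose in hag1 over the stages (0.241%) and 36 fell (0.192%), at a Benjamini-Hochberg adjusted p under 0.05 in the edgeR quasi-likelihood test with stage as the pair. Together these 81 are the called genes, 0.433% of those tested. The median fitted log2 change was 3.18 among the 45 that rose, with a range of 1.13 to 7.04, and -2.08 among the 36 that fell, with a range of -1.10 to -5.25, against a median of -0.02 over all genes tested. Summed over the 4 Col libraries, the median gene that rose had 29 reads, and over the 4 hag1 libraries 290. The median gene that fell had 710 reads in Col and 188.5 in hag1. In 14 of the 45 genes that rose no Col library held more than 3 reads, and 0 of the 36 that fell had so few in every hag1 library. No stage was replicated, so the test takes the spread of the genotype difference across stages as its error. Nothing in the labels says that the libraries came from separate cultures, so a p-value reflects the spread among these 8 libraries alone. In bulk tissue fewer cells of a type and less RNA per cell cannot be told apart.

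The number of genes called was lower when any library was left out. Because stage is a term of the fit, the partner library of that stage then adds nothing on the genotype difference. Each such fit thus in effect loses the whole stage and has fewer residual degrees of freedom. The 8 fits are not separate checks of each library, and whether particular libraries lowered the number was not tested. Without the Col root library the same test called 31 genes, 14 of them among the 81, without the hag1 root library 34 (15 among the 81), and without Col at 2 weeks on SIM 15 (12 among the 81). It called 0 with Col left out at CIM or at 2 days on SIM, or with hag1 left out at CIM, 2 days or 2 weeks on SIM, where 2721 to 3172 genes still had an unadjusted p under 0.05. All 81 genes kept the sign of their change without each of the 8 libraries in turn.

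The sign of the hag1 to Col ratio was the same at all 4 stages for 45 of the 45 genes that rose, and for 35 of the 36 that fell. The test favours genes whose ratios agree between stages. This agreement, and the counts of fold and interval below, thus follow in part from the calls and add no support. Across all tested genes 2579 were higher in hag1 at every stage (13.8%) and 3006 were lower at every stage (16.1%), or 29.9% together. The exception was AT5G35940, a mannose-binding lectin gene, with 1154, 9, 1 and 40 Col reads and 72, 1, 1 and 4 hag1 reads. Its single read in each library of 2 days on SIM gave no direction. For some other called genes the sign at a stage rested on few reads. CGA1 had 1 read in Col and 0 in hag1 in roots and on CIM, and AT4G12520 likewise on CIM and after 2 days on SIM. In roots NGA1 had 2 Col reads and 1 hag1 read. The change was at least 2-fold at each of the 4 stages for 40 of the 45 genes that rose and 30 of the 36 that fell, and the 95% Clopper-Pearson interval of the ratio lay beyond 0 on the log2 scale at each stage for 36 and 25. MRN1 counts as 2-fold at each stage, though 5 Col and 0 hag1 reads on CIM and after 2 days on SIM gave intervals that span 0. A sign-flip permutation over 4 pairs cannot go below p = 0.125, so single genes were not tested that way.

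The genes that rose had a lower median ratio in roots than in explants, but the prior count of 2 lowers a ratio where reads are few. In roots AT1G05080 had 0 Col reads and 1 hag1 read, which gave a log2 ratio of 0.59. The part of read number in the differences between stages was not tested. The 95% interval of the genes that rose lay beyond 0 for 37 of the 45 in roots, 45 on CIM, 45 after 2 days on SIM and 44 after 2 weeks. Their largest of the 4 ratios fell in roots for 5, on CIM for 15, after 2 days for 17 and after 2 weeks for 8. Their median log2 ratio was 2.44 in roots, 2.87 on CIM, 2.96 after 2 days on SIM and 2.51 after 2 weeks on SIM. For genes that fell it was -1.53, -1.76, -1.80 and -1.98. All 4 hag1 libraries lay above all 4 Col libraries, whatever the stage, for 34 of the 45 genes that rose, where 1.67% of all tested genes did so. For 13 of the 36 that fell all hag1 libraries lay below all Col libraries, where 1.66% of all tested genes did so. In the other called genes some hag1 library of one stage overlapped a Col library of another. These counts too follow in part from the calls.

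**Figure D1:**
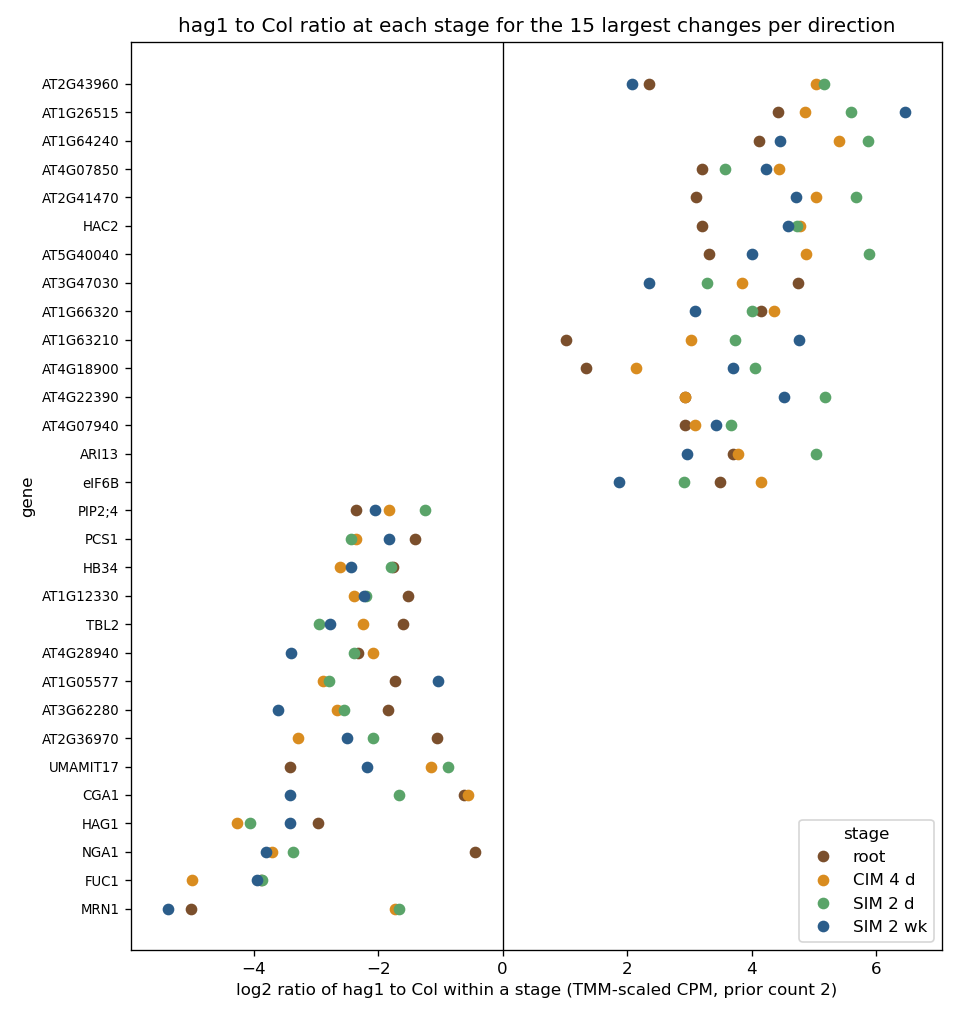
log2 ratio of hag1 to Col in TMM-scaled CPM, with a prior count of 2 added, on the x axis, for each of the 4 stages (coloured points), and the 15 largest changes per direction among called genes of 1 sign with at least 50 reads in 1 library on the y axis. By that choice every point of the upper 15 genes lies right of 0 and every point of the lower 15 left of it. The points of AT1G63210 and MRN1 are spread most widely between stages.

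F-box genes made up 9 of the 45 genes that rose. F-box proteins are the part of SCF ubiquitin ligases that picks the substrate. Of 174 tested genes with the word F-box in their deposited description 9 rose and 0 fell, or 5.17% against 0.241% of all genes, and the median log2 change of the 174 was 0.11. Among the 37 tested genes whose description reads "F-box and associated" or "F-box associated" 5 rose, 0 fell, and 15 were higher in hag1 at all 4 stages (40.5%, against 13.8% of all genes), with a median log2 change of 0.37. These words were chosen after the called genes were seen, so the counts describe the 9 genes and do not test the family. The 9 genes lie on all 5 chromosomes.

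AT1G26515 (chromosome 1, 9161810 to 9162910, reverse strand) had the largest fitted change of the F-box genes. It had 0, 1, 2 and 1 Col reads and 40, 83, 180 and 252 hag1 reads. The genotypes did not overlap, and the summed reads gave a log2 ratio of 7.18 (95% interval 5.81 to 9.06, counting error only; adjusted p = 0.0101). AT3G61340 had the smallest SE of the 9, with 3, 23, 31 and 6 Col reads and 44, 275, 308 and 112 hag1 reads, a log2 change of 3.73 (SE 0.20, adjusted p = 0.0101). In both genotypes its reads were highest on CIM and after 2 days on SIM, so the gene followed the same course over the stages at 2 levels. AT3G47030 went the other way over the stages, with 135 reads in hag1 roots and 27, 26 and 18 in the hag1 explants, and 3, 0, 1 and 2 reads in Col.

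The other 6 F-box genes ranged in log2 change from 2.91 for AT5G60610 to 6.20 for AT3G28330. AT1G66320 had 0, 3, 7 and 2 Col reads and 33, 97, 129 and 31 hag1 reads. AT4G22390 had 2, 12, 2 and 2 Col reads and 29, 99, 135 and 87 hag1 reads. Both were separated between the genotypes in every library. AT3G28330 had 1 read in the 4 Col libraries together and 10, 24, 39 and 29 in hag1, so its fold is not bounded well: the summed reads gave a log2 ratio of 6.73 with a 95% interval of 4.22 to 12.05. AT1G05080 (0, 1, 3 and 1 reads in Col, 1, 19, 36 and 28 in hag1) and AT2G16450 (0, 6, 15 and 8 in Col, 2, 104, 99 and 46 in hag1) were scarce in roots of both genotypes. AT5G60610, with 16, 51, 19 and 37 Col reads and 152, 221, 253 and 215 hag1 reads, shares 50 bases with a neighbouring coding gene, and the use of strand in counting is not given in the sources used here.

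**Figure D2:**
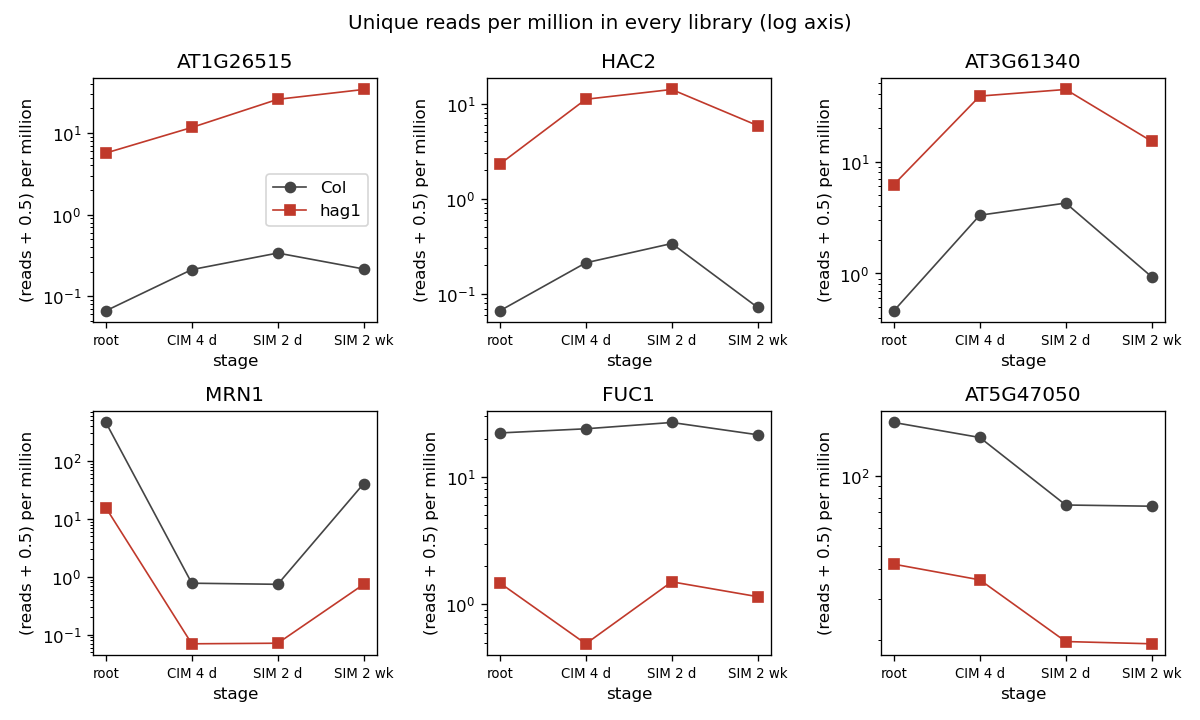
Unique reads plus 0.5, per 1e+06 reads, in every library (y axis, log scale) at the 4 stages (x axis) for 3 genes that rose and 3 that fell, with Col as grey circles and hag1 as red squares, 1 library each. The genotypes follow like courses in AT3G61340 and AT5G47050, Col points of AT1G26515 and HAC2 stand for at most 2 reads, and MRN1 had 0 reads in hag1 on CIM and after 2 days on SIM.

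Next are 6 genes that rose and have a close relative elsewhere in the genome, with the relative's values beside them. Both the 6 genes and the relatives were picked after the called genes were seen, so nothing is said of second copies in general. HAC2 (AT1G67220, chromosome 1, 25145587 to 25150558), a histone acetyltransferase of the CBP family, had 0, 1, 2 and 0 Col reads and 16, 79, 98 and 43 hag1 reads. Every hag1 library held at least 16 reads and every Col library at most 2. The summed reads gave a log2 ratio of 6.36 (95% interval 4.79 to 8.64; adjusted p = 0.0239). Its partner HAC1 had a log2 change of 0.20 and did not pass the test. Per length HAC2 stayed the lower of the pair, at 0.533 to 3.33 reads per kilobase and 1e+06 reads (RPKM) in hag1, against 2.69 to 3.48 RPKM for HAC1 summed over its 2 transcript models.

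eIF6B (AT2G39820), a second gene for initiation factor eIF6, which acts in the maturation of the large ribosomal subunit, had 1, 3, 6 and 3 Col reads and 32, 83, 53 and 16 hag1 reads. All hag1 libraries exceeded all Col libraries, and the log2 change was 3.78 (SE 0.46, adjusted p = 0.0487). eIF6A, the main gene, had 867, 1001, 1184 and 770 Col reads and 628, 1112, 1041 and 862 hag1 reads, a log2 change of -0.03 (SE 0.16) that did not pass the test. On the RPKM scale eIF6B moved from 0.15 to 0.918 in Col to 2.44 to 13.1 in hag1, which left it below eIF6A, at 80.9 to 147 RPKM over all libraries.

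CRH1, a MORC-family ATPase and homologue of CRT1, had 3, 8, 12 and 4 Col reads and 18, 60, 96 and 26 hag1 reads, a log2 change of 2.90 (SE 0.26, adjusted p = 0.0402). CRT1 had 181, 352, 416 and 245 Col reads and 205, 412, 453 and 304 hag1 reads, with a log2 change of 0.27 that did not pass. AT1G63210, related to the elongation factor SPT6, had 0, 3, 3 and 1 Col reads and 2, 37, 60 and 76 hag1 reads, and its partner GTB1 a log2 change of 0.25. AT5G25230, which resembles the spliceosomal GTPase encoded by MEE5, had 1, 10, 20 and 11 Col reads and 6, 56, 85 and 45 hag1 reads, and MEE5 a log2 change of 0.33. Neither partner passed the test. GTB1 and MEE5 each have 2 transcript models in the files and kept few unique reads, so their values say little about their levels.

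ACC2, the plastid acetyl-CoA carboxylase of fatty acid synthesis, was well expressed in Col, with 109, 677, 928 and 309 Col reads and 578, 2502, 3051 and 743 hag1 reads. Its log2 change was 1.87 (SE 0.19, adjusted p = 0.0410), and the ratio was positive at all stages although Col and hag1 libraries of different stages overlapped. ACC1, the cytosolic enzyme, had a log2 change of -0.17 that did not pass. The 2 genes are near-identical neighbours, and counting of unique reads can split them unevenly, so their levels are uncertain.

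Several other genes that rose carry descriptions of translation or RNA binding, named here from the called genes with no count of such genes as a class. AT5G40040, annotated as an acidic ribosomal protein of the large subunit, had 1, 2, 2 and 8 Col reads and 28, 112, 222 and 157 hag1 reads. AT2G43960, with a SWAP domain found in splicing regulators, had 1 read in the 4 Col libraries together and 8, 64, 101 and 6 in hag1, a log2 ratio of summed reads of 7.54 (95% interval 5.05 to 12.85). Its hag1 reads came mostly from CIM and 2 days on SIM. AT2G18720, of the family of translation factors EF1A and IF2 gamma, had 7, 26, 53 and 5 Col reads and 54, 433, 274 and 63 hag1 reads. The RNA-binding protein gene AT5G03480 and the WD40 repeat genes AT5G49200 and AT4G18900 rose by 4.32, 4.42 and 4.52 on the log2 scale, all from at most 3 reads in any Col library. AT4G18900 had 0, 1, 1 and 3 Col reads and 3, 11, 46 and 62 hag1 reads.

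Of 142 tested genes described as transposable element genes 4 rose (2.82%, against 0.241% of all genes) and 0 fell. At all 4 stages 38 of the 142 were higher (26.8%, against 13.8% of all genes) and 21 were lower, and the median log2 change was 0.12. These words too were chosen after the called genes were seen, so the counts do not test the class. AT1G64240 had 0, 1, 1 and 1 Col reads and 32, 123, 167 and 61 hag1 reads, a log2 ratio of summed reads of 7.06 (95% interval 5.50 to 9.34). AT4G07850 had 0, 1, 0 and 0 Col reads and 16, 62, 22 and 33 hag1 reads, a log2 ratio of 7.11 (95% interval 4.61 to 12.43). Both were almost without reads in Col at every stage. AT4G09875 had 1, 2, 1 and 2 Col reads and 24, 21, 25 and 39 hag1 reads, the most even hag1 values of the 4. AT3G60965 was expressed in Col (99, 111, 155 and 63 reads) and rose by 1.35 on the log2 scale, but it shares 9903 bases with an annotated coding gene. A MuDR-type transposase gene, AT1G49920, rose by 2.41.

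The remaining genes that rose had varied roles. ARI13, an ARIADNE-type RING protein gene, had 4, 20, 11 and 39 Col reads and 78, 284, 379 and 319 hag1 reads, with no overlap between the genotypes (log2 change 4.01, SE 0.39, adjusted p = 0.0409). The P-type ATPase genes AT1G54280 and AT3G13900 rose by 3.10 and 2.65. AT2G41470, which encodes a protein of unknown function, had 1 read in each Col library and 24, 94, 146 and 73 in hag1. AT4G07940, of unknown function too, had 0, 4, 3 and 1 Col reads and 13, 47, 57 and 29 hag1 reads. HSP17.4, a small heat shock protein gene, AtSPO22, a homologue of a yeast meiosis gene, and the multicopper oxidase-like gene SKS2 rose by 2.04, 1.86 and 3.0. The smallest rises were of genes already expressed in Col: FIB, for the plastid lipid-associated protein fibrillin, rose by 1.17 and AT1G13880, with an ELM2 domain, by 1.13. AT1G13880 had 472, 569, 545 and 290 Col reads and 1005, 1155, 891 and 818 hag1 reads, so all hag1 libraries were still above all Col libraries.

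What the genes that rose share was looked for in their promoters, as windows of 300 bases, 250 before and 50 after the gene start in the deposited coordinates, read from the RefSeq sequence of TAIR10.1. The windows below are those of 4 genes that rose from few Col reads, picked because they hold the motif, and of MRN1, the gene that fell furthest. Windows of other genes that rose from few reads, such as HAC2, AT2G43960 and AT4G07850, do not hold AAACCCTA. Capitals mark AAACCCTA, known as the telo-box, and TGGGCC, known as the site II element, both of which are common in plant promoters of translation and cell proliferation genes, on either strand.
AT1G26515, chr1:9162861-9163160, minus strand: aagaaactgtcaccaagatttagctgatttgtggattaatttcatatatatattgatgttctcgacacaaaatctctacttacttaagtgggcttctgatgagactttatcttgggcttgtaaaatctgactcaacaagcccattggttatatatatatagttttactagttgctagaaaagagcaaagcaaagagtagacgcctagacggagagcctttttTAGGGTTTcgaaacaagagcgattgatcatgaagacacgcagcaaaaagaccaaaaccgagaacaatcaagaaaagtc
AT3G28330, chr3:10587663-10587962, minus strand: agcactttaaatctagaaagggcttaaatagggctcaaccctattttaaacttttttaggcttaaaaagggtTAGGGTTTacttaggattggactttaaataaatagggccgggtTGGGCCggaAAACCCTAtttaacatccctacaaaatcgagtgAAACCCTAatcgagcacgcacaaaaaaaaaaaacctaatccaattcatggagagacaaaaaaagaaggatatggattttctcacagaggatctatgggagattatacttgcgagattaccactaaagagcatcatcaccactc
AT5G40040, chr5:16030264-16030563, minus strand: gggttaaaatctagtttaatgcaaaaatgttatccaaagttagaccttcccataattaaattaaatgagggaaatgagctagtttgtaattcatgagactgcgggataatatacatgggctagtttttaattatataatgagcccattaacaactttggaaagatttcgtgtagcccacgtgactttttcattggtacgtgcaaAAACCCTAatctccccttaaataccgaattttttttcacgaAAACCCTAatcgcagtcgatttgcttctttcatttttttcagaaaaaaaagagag
AT1G05080, chr1:1458841-1459140, plus strand: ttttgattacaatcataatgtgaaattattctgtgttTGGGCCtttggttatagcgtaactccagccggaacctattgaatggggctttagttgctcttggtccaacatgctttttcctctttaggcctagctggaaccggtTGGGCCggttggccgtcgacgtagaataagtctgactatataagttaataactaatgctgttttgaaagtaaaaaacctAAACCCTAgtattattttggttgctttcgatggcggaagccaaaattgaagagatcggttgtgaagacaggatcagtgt
MRN1 (AT5G42600), chr5:17053267-17053566, plus strand: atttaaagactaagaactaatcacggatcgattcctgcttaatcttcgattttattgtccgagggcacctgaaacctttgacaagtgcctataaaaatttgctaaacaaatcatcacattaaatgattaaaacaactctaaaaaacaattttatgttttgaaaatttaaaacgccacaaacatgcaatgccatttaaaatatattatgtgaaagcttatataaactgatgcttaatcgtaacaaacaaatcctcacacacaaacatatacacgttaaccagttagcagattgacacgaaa

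In AT3G28330 the telo-box letters occur 3 times and TGGGCC occurs 1 time. AT5G40040 holds AAACCCTA at 46 and 5 bases before its start, and AT1G26515 and AT1G05080 hold it at 28 and 29 bases before theirs. The MRN1 window holds neither. AAACCCTA was found in 15 of the 45 windows of genes that rose (33.3%) and in 2 of the 36 of genes that fell (5.56%), one of which was HAG1 itself, against 1656 of 18624 windows of tested genes (8.89%) and 8.75% of all windows. TGGGCC was found in 14 of 45 (31.1%) and 1 of 36 (2.78%), against 18.1% of tested genes and 15.9% of all windows. At least 1 of these 2 motifs lay in 24 of the 45 windows and both in 5. The share of tested genes with either or both was not counted, so these 2 counts describe the 45 alone. Of the 15 genes with AAACCCTA 5 were F-box genes, as were 9 of all 45.

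The other motifs searched were TATAAA, the TATA element, at 44.4% in genes that rose, 50% in genes that fell and 49.7% in tested genes, and GAGAGA at 31.1, 38.9 and 43.4%. TTGACC, the core of the W-box, stood at 17.8, 13.9 and 14.4%. All were searched on both strands, and overlapping matches count once per window. The same contrast appeared in the larger group defined by sign alone. AAACCCTA lay in 15.2% of the windows of genes higher in hag1 at all 4 stages and in 4.49% of those lower at all 4, and TGGGCC in 26.4 and 10.6%. Median GC content was 36.3% in windows of genes that rose, 30.7% in genes that fell and 34.0% in tested genes.

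Read from the motif side, the 1656 tested genes with AAACCCTA had a median log2 change of 0.12, against -0.05 in genes without it, and 23.6% of them were higher at all 4 stages, against 12.9% without. For TGGGCC the medians were 0.09 and -0.06 and the shares 20.2 and 12.4%. Both medians with the motif remained above 0 with DESeq2 size factors (0.11 and 0.08) and with scaling by total reads (0.08 and 0.05). Genes with AAACCCTA were also more highly expressed, with a median of 4.68 on the log2 CPM scale against 4.01 without it, and the part of expression level in these shares was not tested. A match of letters does not show that a factor binds there.

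**Figure D3:**
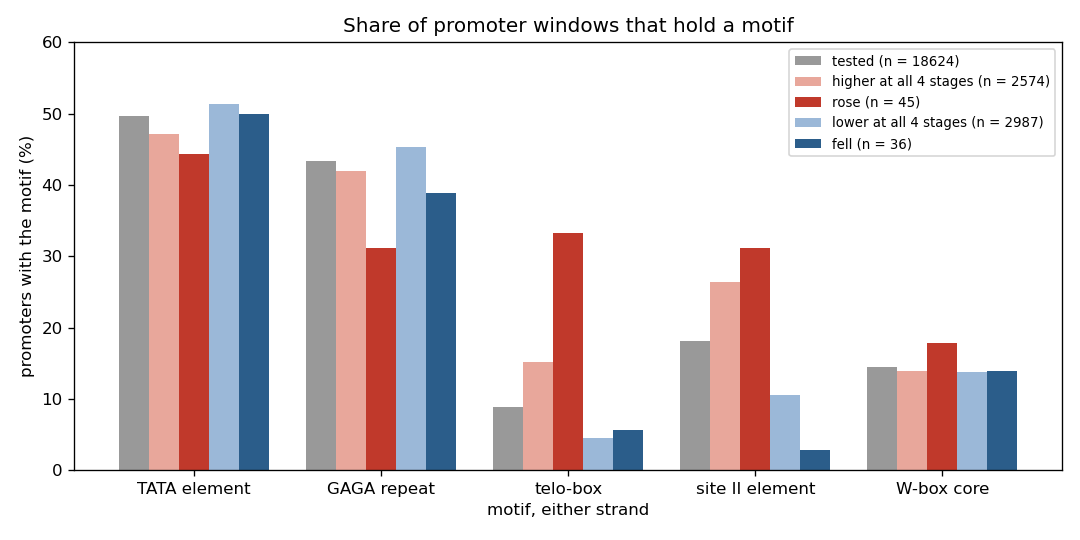
Share of promoter windows (y axis, percent) that hold each of 5 motifs on either strand (x axis), for tested genes, genes higher or lower in hag1 at all 4 stages, and genes that rose or fell in the edgeR test. The telo-box and site II bars are highest for genes that rose (33.3 and 31.1%) and low for genes that fell (5.56 and 2.78%), while the TATA element stays between 44.4 and 51.4% in every group.

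The 2 largest falls were of a gene of specialised metabolism, MRN1, and of a gene for a wall enzyme, FUC1. MRN1 (AT5G42600, chromosome 5, 17053517 to 17058245), the marneral synthase that makes a root triterpene, had 3480, 5, 5 and 282 Col reads and 111, 0, 0 and 5 hag1 reads. Col roots held most of its reads, while CIM explants and those after 2 days on SIM were near 0 in both genotypes. Its log2 change was -5.25 (SE 0.26, adjusted p = 0.0101). Of 7 tested genes of the marneral and thalianol clusters MRN1 alone passed (0.433% of all genes did), and the list had a median log2 change of -0.95. The neighbouring marneral cluster genes CYP705A12 and CYP71A16, which encode P450 enzymes, had log2 changes of -2.43 (adjusted p = 0.108) and -1.07 (adjusted p = 0.467). CYP71A16 had 1590, 116, 61 and 675 Col reads and 629, 108, 91 and 50 hag1 reads, so it was lower in hag1 in roots and after 2 weeks on SIM, with a log2 ratio of 0.74 after 2 days on SIM.

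FUC1 (AT2G28100), annotated as an alpha-L-fucosidase, an enzyme class that trims fucose from wall glycans, was nearly constant over the Col stages, with 167, 169, 198 and 149 reads, and had 10, 3, 10 and 8 in hag1. The genotypes were far apart at every stage (log2 change -4.42, SE 0.30, adjusted p = 0.0192), though the locus shares 298 bases with another coding gene and 171 with a microRNA gene. TBL2, of the family of polysaccharide acetyltransferases, had 158, 115, 147 and 72 Col reads and 53, 21, 15 and 9 hag1 reads. IRX15-L, needed for xylan of secondary walls, had 299, 71, 88 and 127 Col reads and 106, 19, 18 and 34 hag1 reads. AGP30, a root arabinogalactan protein gene, was a root transcript in both genotypes, with 3824, 29, 11 and 6 Col reads and 819, 10, 2 and 1 hag1 reads, a log2 change of -2.07. The pectin methylesterase inhibitor-like gene AT5G64640 fell by 1.52.

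Other enzymes and transporters fell. AT5G47050, of the S-ribonuclease binding protein family, had the smallest SE of the genes that fell, with 1269, 1028, 554 and 515 Col reads and 299, 257, 137 and 142 hag1 reads. Its log2 ratios were -2.14, -1.89, -1.82 and -1.85, with an overall change of -1.94 (SE 0.12, adjusted p = 0.0122). MIPS1, the main gene for inositol phosphate synthase, the entry step of inositol synthesis, had 777, 300, 302 and 338 Col reads and 296, 86, 66 and 65 hag1 reads. AT4G28940, of the phosphorylase superfamily, had 780, 139, 111 and 701 Col reads and 161, 29, 17 and 65 hag1 reads. Both were lower in hag1 at each stage, and reads of AT4G28940 were more numerous in hag1 roots than in Col explants on CIM or after 2 days on SIM. AT3G62280, a GDSL lipase gene, had 84, 86, 98 and 155 Col reads and 23, 11, 13 and 11 hag1 reads, with every hag1 library below every Col library.

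Several more called genes that fell differed in the stages at which they were seen. UMAMIT17, of a family of amino acid transporters, had 223, 5, 4 and 11 Col reads and 20, 1, 1 and 1 hag1 reads, so roots carried nearly all of them. The lipid-transfer-like genes AT4G12520 (1823, 1, 1 and 69 reads in Col, 496, 0, 0 and 14 in hag1) and AT4G22610 were likewise root transcripts and fell, with log2 changes of -2.10 and -1.54. They belong to a multigene family whose closest copies can share reads, so their levels are uncertain. AT2G36970, a UDP-glycosyltransferase gene, had 4, 61, 17 and 104 Col reads and 1, 4, 2 and 17 hag1 reads. AT1G05577, of unknown function, had 17, 109, 100 and 4 Col reads and 4, 12, 11 and 1 hag1 reads, a transcript of the middle stages. PCS1, an aspartyl protease gene that limits cell death, had 26, 107, 108 and 33 Col reads and 9, 18, 16 and 8 hag1 reads. AT1G12330, of unknown function, had 20, 37, 60 and 30 Col reads and 6, 5, 10 and 5 hag1 reads, below Col in every library.

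Among regulators that fell were B3, GATA, homeobox, argonaute and cyclin genes. NGA1, a B3 factor of the NGATHA family that shapes leaf margins and the style, had 2, 68, 80 and 107 Col reads and 1, 3, 5 and 6 hag1 reads. Its loss was seen in all 3 explant stages, and roots of both genotypes had next to none (log2 change -3.90, SE 0.40, adjusted p = 0.0410). Of 5 tested genes of the NGATHA group 0 rose and NGA1 alone fell (0.192% of all genes did), and the group's median was 0.07. NGA3 had a log2 change of -1.65 (adjusted p = 0.242) and the related AT3G11580 one of 0.79 (adjusted p = 0.125), with a positive ratio at all 4 stages.

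CGA1, a cytokinin-responsive GATA factor of greening, had 1, 1, 5 and 240 Col reads and 0, 0, 0 and 21 hag1 reads. Its difference rested on 2 weeks on SIM, when shoots form, since the other 3 stages held at most 5 reads (log2 change -3.58, SE 0.45, adjusted p = 0.0500, under the threshold before rounding). Of 7 tested B-class GATA genes 0 rose and CGA1 alone fell (0.192% of all genes did), with a median of -0.45. MNP, another GATA factor gene, had 35, 281, 211 and 11 Col reads and 28, 44, 8 and 9 hag1 reads, which gave -2.04 (adjusted p = 0.208). HB34, a zinc finger homeodomain factor gene, had 161, 44, 49 and 308 Col reads and 48, 5, 11 and 56 hag1 reads, lower at each stage. AGO7, the argonaute that with a microRNA starts the formation of trans-acting small RNAs, had 75, 227, 245 and 74 Col reads and 34, 72, 71 and 23 hag1 reads. AGO7 was lower in hag1 at each stage, although hag1 explants on CIM reached the level of Col roots (log2 change -1.51, SE 0.17, adjusted p = 0.0436).

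D-type cyclins, which couple growth signals to entry into the cell cycle, had 2 called members of 8 tested. CYCD3;2 had 285, 384, 489 and 261 Col reads and 136, 108, 105 and 83 hag1 reads and fell by 1.64 (SE 0.18, adjusted p = 0.0436), with no overlap between the genotypes. CYCD1;1 had 424, 116, 67 and 59 Col reads and 194, 45, 25 and 19 hag1 reads and fell by 1.31 (SE 0.16, adjusted p = 0.0487). None of the 8 rose, 5 were lower at all 4 stages, and the median was -0.84 against -0.02 over all genes, of which 0.192% fell and 16.1% were lower at all 4 stages. CYCD3;1 had 299, 2024, 3120 and 1123 Col reads and 874, 1451, 1977 and 1100 hag1 reads, with a log2 ratio of 1.48 in roots, and did not pass (log2 change 0.12, adjusted p = 0.872). CYCD4;2 (log2 change -1.85, adjusted p = 0.0842) and CYCD3;3 (-0.88, adjusted p = 0.106) did not pass. Both called cyclins share bases with annotated neighbours, CYCD3;2 220 and CYCD1;1 144. AT2G25480, of the TPX2 family of spindle-associated proteins, fell by 1.55.

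Aquaporins, the water channels of plasma membrane (PIP) and vacuole (TIP), were the list with the most called members. Of 18 tested 3 fell (0.192% of all genes did) and 0 rose. A log2 change below 0 was seen in 17, and 11 were lower at all 4 stages (16.1% of all genes were). The median was -1.49, against -0.02 over all genes, and moved only to -1.51 with DESeq2 size factors and to -1.49 with total reads. PIP2;4 had 2423, 32, 14 and 43 Col reads and 489, 7, 4 and 9 hag1 reads (log2 change -2.19, SE 0.17, adjusted p = 0.0239). TIP1;2, listed as TIP2 in the annotation, had 19144, 206, 2141 and 4539 Col reads and 6611, 42, 845 and 1202 hag1 reads. PIP2;2, listed as PIP2B, had 9485, 36, 140 and 281 in Col and 4267, 9, 32 and 93 in hag1. All 3 are root transcripts, and the stages differed more than the genotypes did. The PIP2 genes include near-identical copies, PIP2;2 and PIP2;3 among them, whose reads may be split unevenly. PIP2;8 (log2 change -3.26, adjusted p = 0.114), TIP2;3 (-2.45, adjusted p = 0.0845) and TIP1;1 (-2.06, adjusted p = 0.0761) did not pass.

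**Figure D4:**
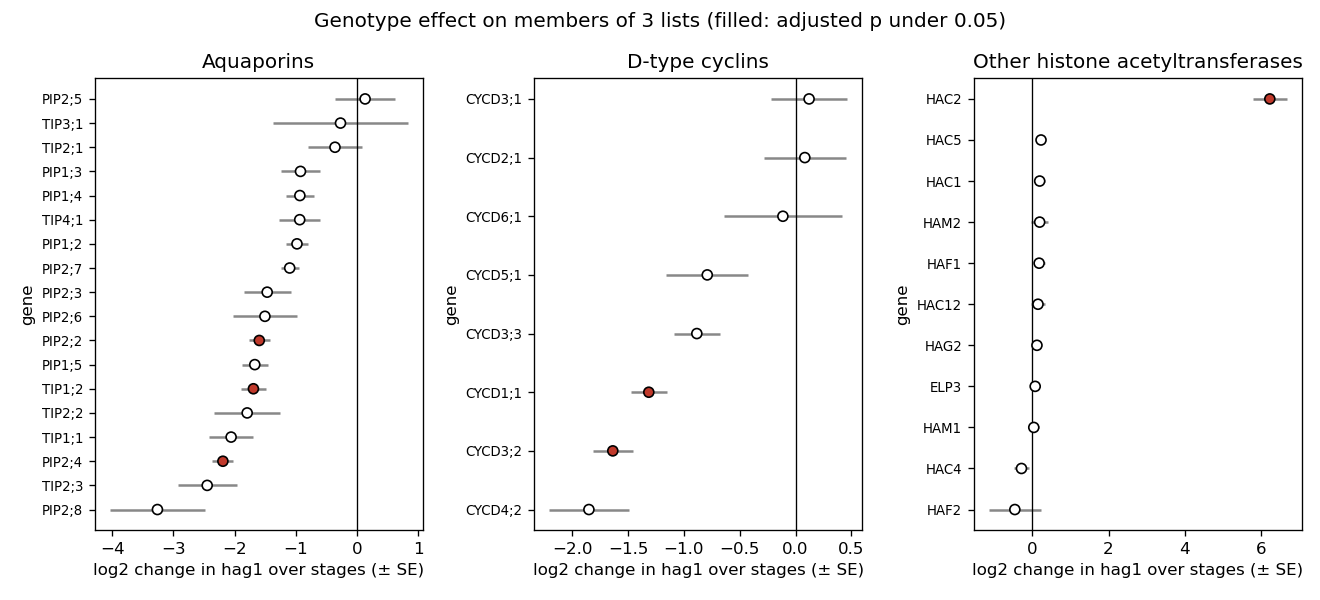
Fitted log2 change in hag1 over the 4 stages, with its SE, on the x axis for tested aquaporins, D-type cyclins and histone acetyltransferases other than HAG1 on the y axis, filled where the edgeR adjusted p was under 0.05. Aquaporins lie mostly left of 0, and HAC2 stands at 6.23 while the other 10 acetyltransferases lie between -0.46 and 0.23.

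Markers of cell types that root tissue holds are given beside these genes, and none of them passed the test. The summed level of the aquaporins was 9791, 323, 542 and 1512 CPM in Col and 3312, 191.5, 301 and 771 CPM in hag1. For 8 endodermis markers, CASP1 to CASP5 among them, it was 1046, 20.3, 71.3 and 204 CPM in Col and 439, 14.4, 42.5 and 48.3 in hag1. All 8 had a log2 change below 0 (median -1.78, against -0.02 over all genes) and 0 passed the test. CASP1, a Casparian strip protein gene, was at -2.47 (adjusted p = 0.0650) and had 0 reads in hag1 on CIM. For 10 tested xylem and phloem markers the median was -1.16, with 0 called, and the summed level was 1029, 167, 202 and 611 CPM in Col and 763, 169, 367 and 212 CPM in hag1, so after 2 days on SIM it was the higher in hag1. For 6 root hair markers the median was -0.68, with 0 called and sums of 499, 3.10, 42.2 and 117 CPM in Col and 343, 6.91, 49.2 and 48.0 CPM in hag1, higher in hag1 on CIM and after 2 days on SIM. For 10 tested leaf photosynthesis genes it was -0.40, with 0 called and a range of 66.6 to 1646 CPM in Col and 52.6 to 1113 CPM in hag1. Stress and wound genes had a median of -0.29, 0 of 11 called, and 0 of 1 sign at all stages. The part of cell type amounts in the genes that fell was not tested.

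No partner of HAG1 passed the test, and of the other enzymes of histone acetylation 1 did. Of 15 tested genes of HAG1 and its SAGA-type complex HAG1 alone fell and 0 rose, and their median of 0.02 became -0.02 with scaling by total reads. ADA2B had 8, 10, 22 and 12 Col reads and 12, 17, 14 and 11 hag1 reads. Of 11 other acetyltransferase genes HAC2 alone rose and 0 fell, with a median of 0.15. Of all genes 0.241% rose and 0.192% fell, and the lists were chosen with earlier results known, so 1 called member does not test a list. HAG2, of the same GNAT family, had 326, 643, 760 and 496 Col reads and 374, 614, 661 and 633 hag1 reads, a log2 change of 0.12 (SE 0.11). Of 13 tested deacetylases 0 were called, with a median of 0.17, and HDA18 had the furthest value, 1.77 (adjusted p = 0.166), with 2, 15, 4 and 35 Col reads and 6, 42, 57 and 55 hag1 reads. With 3 residual degrees of freedom small shifts in these genes were not detectable.

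Genes reported in the literature to need HAG1 and the regulators of the root stem cell niche had 0 called members. Of 13 tested genes reported as HAG1-dependent in other tissues 10 had a log2 change below 0, and the median was -0.26 against -0.02 over all genes. Those furthest from 0 included LHCB1.1, a light-harvesting protein gene, at -1.12 (adjusted p = 0.238), IAA3, an auxin response repressor, at -0.80 (adjusted p = 0.100), and COR47, a cold-induced dehydrin, at -0.77 (adjusted p = 0.175). IAA3 was lower in hag1 at all 4 stages, with 311, 384, 221 and 36 Col reads and 163, 261, 124 and 15 hag1 reads. All 9 tested root stem cell regulators had a log2 change below 0, with a median of -1.17 against -0.02 over all genes. Of these regulators 6 were lower at all 4 stages (16.1% of all genes were). The share of all tested genes with a log2 change below 0 was not counted. JKD, a zinc finger partner of SCR and SHR, was at -2.05 (adjusted p = 0.0911), with 500, 320, 590 and 112 Col reads and 330, 65, 92 and 12 hag1 reads, a ratio that ran from -0.65 in roots to -3.05 after 2 weeks on SIM.

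Size of change at every stage gave a second view that does not use the fitted spread. Of 10334 genes that reached 50 reads in 1 library or more of each stage, 27 were at least 2-fold higher in hag1 at all 4 stages (0.261%) and 43 at least 2-fold lower (0.416%). The edgeR test called 10 of the 27 and 18 of the 43. The genes named next passed this rule but not the test, and were picked after their values were seen. AGO9, an argonaute of the small RNA pathway that silences transposons in ovules, had 0, 26, 6 and 78 Col reads and 58, 140, 330 and 548 hag1 reads (log2 change 3.73, SE 0.69, adjusted p = 0.081). AT4G38780, a second gene for a core splicing factor, had 59, 60, 234 and 182 Col reads and 346, 769, 973 and 618 hag1 reads. Both were higher at every stage, but by amounts that varied.

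On the lower side AT1G31710, a copper amine oxidase gene, had 2563, 63, 384 and 426 Col reads and 694, 2, 9 and 27 hag1 reads, a log2 change of -3.58 that varied from -1.94 in roots to -4.95 after 2 days on SIM. AGL17, a root MADS factor gene (AT2G22630), had 234, 162, 197 and 56 Col reads and 90, 41, 9 and 4 hag1 reads. CYP79B3, an enzyme gene of indole glucosinolate and auxin synthesis (AT2G22330), had 4474, 241, 870 and 332 Col reads and 1669, 52, 64 and 133 hag1 reads. FLA8, a fasciclin-like arabinogalactan protein gene (AT2G45470), had 3365, 297, 633 and 566 Col reads and 887, 14, 111 and 213 hag1 reads. In each of these the loss was larger in the explants than in roots for at least 1 stage. DR4, related to protease inhibitors (AT1G73330), had 50840 reads in roots of Col and 14028 in those of hag1.

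Called genes were spread over the genome. Per chromosome, 20 of 4864 tested genes were called on chromosome 1, 17 of 2811 on chromosome 2, 10 of 3723 on chromosome 3, 16 of 2845 on chromosome 4 and 18 of 4382 on chromosome 5, or between 0.269 and 0.605%. Within 2 Mb of HAG1, 831 genes were tested and 0 others were called at an adjusted p under 0.05, so HAG1 stood alone there. There were 3 pairs of called genes that started within 50 kb of each other, and the number that random placement would give was not computed. AT2G41730 and AT2G41780, both of unknown function, lie 18.6 kb apart and both rose, IRX15-L and CYCD3;2 lie 17.2 kb apart and both fell, and AT5G60610 and PIP2;4 lie 11.9 kb apart and moved in opposite directions. In all, 17 of the 81 called loci share bases with another annotated gene, 16 of them with a coding one, and reads of such partners cannot be told apart where counting ignores strand.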

How the data were processed

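Total RNA of 8 libraries, 1 per genotype and stage, was sequenced at BGI on an Illumina protocol, per the labels. For each transcript model the authors deposited an unscaled unique read count, an RPKM value made from it, and a coverage column, per the file headers, as the percent of each model covered by reads. TAIR10 is the genome per the submitters' processing notes. Not given in the sources used here are the aligner, the counter and strand use.

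Counts of 30591 models were summed over 25686 loci. Reads that several models of a locus share may be missing from the counts of the 4184 loci with more than 1 model. edgeR 4.0.16 in R 4.3.3 (TMM scaling, filterByExpr with the design) fitted stage and genotype to all 8 libraries, with 3 residual degrees of freedom (biological coefficient of variation 0.264), and p-values were adjusted over 18710 genes. Ratios within a stage used TMM-scaled CPM with a prior count of 2, and their 95% exact Clopper-Pearson intervals, from raw counts, cover counting error only, as does the bound of 3 reads, or 0.398 to 0.431 CPM, for a locus with 0 reads. Where the 4 Col libraries held 1 to 3 reads in all, the fitted log2 change depends on the default prior count of the edgeR fit. That is not the 2 used for the stage ratios, and AT2G43960 had a fitted change of 7.04 and a largest stage ratio of 5.16. For such genes the ratio of summed reads is given with its interval.

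Symbols came from RefSeq, which matched 25463 loci. Promoter windows came from the RefSeq sequence of TAIR10.1. At single-model loci 99.4% of deposited genes lay within 500 bases of the RefSeq gene, and 47.0% had at least 1 end in common with it. This checks the coordinates, not the start site, and motif positions count from the deposited start. The gene lists and the members of the comparison were chosen with earlier results of these data known. Reads in every library are given for the 15 largest log2 changes per direction among called genes of 1 sign with at least 50 reads in 1 library. Any called gene of 1 sign could be named, with HAG1 always and, from each list, the called members and up to 4 others by size of change. The DESeq2 version of the alternative test was 1.42.0. Stage is the pair in the design. All groups have the same replicate number, which pairs nothing further. Alternatives covered scaling, filtering, the test, the stage term and left-out libraries.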

Additional observations from a re-analysis of the deposited data

Results flagged for a closer look

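Stage ratios of the 30 genes with reads given in full were compared with each other, and in 3 of them 1 of the 4 stages stood far from the rest, where chance gives about 1 in 20. HAC2 (AT1G67220) had a log2 ratio of 3.20 in roots and 4.59, 4.73 and 4.78 at the other stages, with 0 and 16 reads in Col and hag1 roots. With 0 Col reads the root ratio of HAC2 was set by the prior count of 2 and the hag1 reads. Its 95% interval began at 1.89 and had no upper bound, so the root value does not show a smaller change there. FUC1 (AT2G28100) had a log2 ratio of -5.00 on CIM, with 169 and 3 reads, and -3.94, -3.88 and -3.87 at the others. NGA1 (AT2G46870) had a log2 ratio of -0.45 in roots, from 2 and 1 reads, and -3.80, -3.71 and -3.37 in the explants.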

How the results depend on the processing

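The number called moved between alternatives. Every called gene kept its direction wherever it was tested, which was close to fixed in advance for genes of 1 sign at nearly all stages. Against 81 (45 rose, 36 fell), DESeq2 size factors gave 117 (58 and 59), total unique reads 14 (9 and 5), no low-count filter 222 (93 and 129), a filter that asked for 1 CPM in 4 libraries 75 (42 and 33), the DESeq2 Wald test 1228 (353 and 875), and loci with 1 transcript model 13 (8 and 5). All 81 were among those called with DESeq2 size factors, without the filter and with the DESeq2 Wald test. Without the stage term, that is without the replicate block that pairs the libraries of a stage, 4 genes were called (2 and 2), all among the 81, and 781 had an unadjusted p under 0.05. Leaving out 1 library at a time gave 0 to 34 called genes, 0 to 11 that rose and 0 to 25 that fell. Such a fit in effect loses the whole stage, since the partner library then adds nothing on the genotype difference. Without both libraries of root, CIM, 2 days or 2 weeks on SIM edgeR called 0, with 2574 to 4062 genes at an unadjusted p under 0.05. The causes were not tested. CYCD3;1, not called at 0.12, changed sign to -0.16 without the stage term, -0.30 without hag1 root and -0.31 without both root libraries, and ranged from -0.32 without Col root to 0.35 as single libraries were left out. Genes at least 2-fold higher at all stages numbered 27 with at least 50 reads, 54 with at least 20 and 15 with at least 100, and those lower 43, 81 and 18. With 1 library per genotype and stage, changes of genes with few reads were not detectable at single stages.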
